A study of Mus musculus with 6 samples.

Results

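Of the 41388 genes counted in KP2 mouse pancreatic cancer cells, 10 stood at or under 0.5 times their wild-type level in both Irak4 knockout (KO) libraries and close to that level again in both rescue libraries. They were chosen by CPM, the read count of a gene scaled to the total count of its library. A gene had to reach 10 CPM in both wild-type libraries, to stay at or under 0.5 times the lower wild-type value in both KO libraries, and to reach 0.75 times the wild-type mean in both rescue libraries. Among them are Ankrd1, Cttnbp2nl, Bnip3, Glrp1, Tmcc3, Thbd, Slc16a3, Gadd45b and the noncoding 2610307P16Rik. Since the rule read all 6 libraries, the levels and ratios of these genes are given as a description, with no test. "Fully returned" is a loose name for them: the rescue mean reached the wild-type mean in 1 of the 10, Bnip3, and the other 9 averaged between 0.837 and 0.961 times it. With TMM scaling, which corrects library totals for differences in composition, Bnip3 too fell short (log2 ratio -0.03). The set is sensitive to scaling, and 4 of the 10 (Bnip3, Cttnbp2nl, Gadd45b and Tmcc3) also met the rule with TMM-scaled libraries.

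KP2 is a cell line derived from the KPC mouse, in which pancreatic tumours arise from engineered alleles, on the C57BL/6J strain, grown in serum-containing medium and used at low passage. The 3 groups, with 2 libraries each, are Irak4 KO cells with a rescue, Irak4 KO cells without one, and wild-type cells. Irak4 was disrupted in the KO and the rescue cells with lentiCRISPR guide RNAs; what the rescue cells received in addition, whether wild-type cells got a control vector and whether the KO is 1 clone are not described. Nothing in the labels ties the 2 libraries of a group to separate cultures. The p-values given for other genes therefore cover the spread between libraries alone, and that spread may be technical. In bulk RNA, fewer cells expressing a gene and less RNA per cell cannot be told apart.

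IRAK4 is the serine-threonine kinase that binds MyD88 below Toll-like and interleukin-1 receptors and passes the signal by way of IRAK1 and TRAF6 to NF-kB and the MAP kinases. Pancreatic ductal tumours are known for low oxygen, a stiff matrix and inflammatory signalling. Cells answer low oxygen through hypoxia-inducible factor (HIF), which switches on glycolysis, lactate export and mitochondrial turnover, and they answer stiffness partly through the coactivators YAP and TAZ, which bind DNA with TEAD proteins.

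Irak4 itself had 495 and 209 CPM in the rescue libraries, 21.2 and 22.8 CPM in the KO libraries, and 35.9 and 36.3 CPM in the wild-type libraries. The groups did not overlap, the rescue stood at 13.7 and 5.78 times the wild-type mean, and the fall in the KO was a log2 change of -0.84 (SE 0.33) that missed the threshold of 0.05 (edgeR adjusted p = 0.057). Log2 changes here and below come from edgeR's count model with TMM scaling, and SE is their standard error. A guide-directed cut need not remove the transcript, so the count does not check the KO label, and Irak4 shares exonic bases with Twf1 on the opposite strand. Library totals ran from 7605328 to 11505983 counts. Of the epithelial and ductal markers, Krt8, Krt18, Krt19, Cdh1 and Sox9 were present, while Epcam was at most 0.113 CPM and Krt7 at most 2.26 CPM in any library. The summed level of the 8 epithelial markers was 4808 to 5566 CPM in the rescue, 4058 to 4198 CPM in the KO and 6487 to 6677 CPM in the wild type, lower in both KO-derived groups. All 5 islet markers were at 0, and the summed immune markers reached at most 4.85 CPM and the summed acinar markers at most 4.56 CPM. The 7 fibroblast markers summed to 18.9 to 23.7 CPM in the rescue, 10.6 to 15.6 CPM in the KO and 12.7 to 12.8 CPM in the wild type. Most of that was Col1a1, at 15.6 and 20.2 CPM in the rescue. Whether the shifts in epithelial or fibroblast markers have a part in any level below was not tested.

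The promoters of 8 of the 10 genes were found in RefSeq's table for GRCm38.p6, and 4 are shown: those of Bnip3, Slc16a3 and Ankrd1, the genes on the hypoxia and YAP-TAZ lists, and that of Gadd45b, which shares the letters CACGTG with Bnip3. Each line gives the 250 bases before RefSeq's start, read 5′ to 3′ along the gene.
Bnip3: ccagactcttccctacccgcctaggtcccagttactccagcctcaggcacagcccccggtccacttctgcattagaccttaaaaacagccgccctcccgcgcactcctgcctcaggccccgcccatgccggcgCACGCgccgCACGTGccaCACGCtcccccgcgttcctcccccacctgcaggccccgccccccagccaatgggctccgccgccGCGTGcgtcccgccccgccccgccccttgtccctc
Slc16a3: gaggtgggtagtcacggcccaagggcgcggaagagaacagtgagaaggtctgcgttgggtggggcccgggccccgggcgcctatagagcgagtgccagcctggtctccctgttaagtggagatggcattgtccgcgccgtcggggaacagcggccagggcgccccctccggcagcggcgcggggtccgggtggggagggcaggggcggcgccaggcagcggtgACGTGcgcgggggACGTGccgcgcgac
Gadd45b: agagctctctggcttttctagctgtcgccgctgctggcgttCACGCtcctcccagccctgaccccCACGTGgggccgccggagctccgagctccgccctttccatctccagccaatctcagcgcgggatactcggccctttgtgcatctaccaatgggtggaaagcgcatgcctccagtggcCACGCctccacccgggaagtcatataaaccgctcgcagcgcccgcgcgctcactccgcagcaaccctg
Ankrd1: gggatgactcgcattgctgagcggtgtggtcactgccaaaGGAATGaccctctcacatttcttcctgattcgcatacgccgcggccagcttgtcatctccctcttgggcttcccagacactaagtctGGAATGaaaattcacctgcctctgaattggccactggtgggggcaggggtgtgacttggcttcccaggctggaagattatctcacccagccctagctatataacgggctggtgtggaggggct
The windows are chr7:138909507-138909756 on the minus strand for Bnip3, chr11:120948817-120949066 on the plus strand for Slc16a3, chr10:80929841-80930090 on the plus strand for Gadd45b and chr19:36119845-36120094 on the minus strand for Ankrd1. RefSeq's start is the 5′ end of the gene span given below for Gadd45b and Ankrd1, but lies 587 bases inside that span for Slc16a3 and 13 bases inside it for Bnip3. Capitals in the first 3 mark ACGTG or GCGTG on either strand, the core letters of hypoxia response elements. Capitals in Ankrd1 mark GGAATG, the core bound by TEAD proteins, at 210 and 123 bases before the start.

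ACGTG lay in the window, taken from 250 bases before to 50 after the start, of 4 of the 8 genes: Bnip3, Cttnbp2nl, Gadd45b and Slc16a3. It lay in 21.2% of the windows of the other genes that met the wild-type and KO conditions, in 27.3% of those of the 7138 genes with a window that met the wild-type condition (the expressed genes), and in 19.6% of all 27025 promoter windows. GCGTG lay in 4 of the 8 as well (2610307P16Rik, Bnip3, Gadd45b and Tmcc3), against 44.3% of the other genes that fell, 55.5% of expressed genes and 32.5% of all windows. In Bnip3 and Gadd45b the ACGTG match is part of CACGTG, the E-box, so the same letters count for both motifs; 10.8% of expressed genes and 7.24% of all windows held the E-box. GGAATG was found in Ankrd1 and Glrp1, in 11.2% of expressed genes and in 14.7% of all windows. GGGANTTCC, an NF-kB pattern, was found in none of the 8, in 2.55% of expressed genes and in 1.68% of all windows. With 8 windows these shares are descriptions, and a match is not shown to be a bound site. The other patterns were also searched on both strands. The GC box GGGCGG lay in 6 of 8, against 70.2% of expressed genes and 35.9% of all windows. The ETS core CCGGAA lay in 3 of 8, against 31.9% of expressed genes and 15.2% of all windows. The AP-1 pattern TGANTCA lay in 1 of 8, Glrp1, against 4.33% of expressed genes and 7.92% of all windows, and TATAAA in 1 of 8, Gadd45b, against 6.15% and 14.2%. The cAMP response element TGACGTCA was in none of the 8, against 3.53% of expressed genes and 1.85% of all windows, and the CArG box of SRF in none, against 1.44% and 1.59%. In Glrp1 the ETS match overlaps GGAATG.

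Bnip3 and Slc16a3 are the 2 genes of the set on the hypoxia and HIF list. Bnip3 (chr7:138890836-138909519, minus strand) encodes a mitochondrial outer membrane protein that recruits the autophagy machinery, and it is a classical HIF target. It had 144 and 203 CPM in the rescue, 82.3 and 70.1 CPM in the KO, and 169 and 171 CPM in the wild type. The rescue libraries stood on either side of the wild-type pair, and both stood above the KO pair. Its log2 change was 1.25 (SE 0.15) in the rescue relative to the KO and -1.28 (SE 0.15) for the KO against the wild type. Slc16a3 (chr11:120948480-120960868, plus strand) encodes the lactate exporter MCT4 of glycolytic cells. It had 18.4 and 26.8 CPM in the rescue, 11.6 and 9.73 CPM in the KO, and 23.6 and 23.4 CPM in the wild type. Its rescue libraries again lay on either side of the wild-type pair, with a log2 change of 1.13 (SE 0.19) against the KO, and of -1.25 (SE 0.19) for the KO against the wild type. Slc16a3 lay closest to the KO limit of all 10, with the higher KO library at 0.499 of the lower wild-type library.

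Most other genes of the same pathway moved the same way. Of 48 tested genes on the hypoxia and HIF list, 38 rose in the rescue against the KO and none fell, where 8.35% of all tested genes rose; 45 fell in the KO against the wild type and none rose, where 23.5% of all tested genes fell. The median log2 change of the list was 0.76 in the rescue relative to the KO and -1.18 for the KO against the wild type, and over all tested genes it was -0.00 and 0.01. By CPM scaled to the library total alone, 45 of the 48 were higher in the rescue than in the KO and 46 were lower in the KO than in the wild type. The 2 comparisons share the KO libraries, and the counts include Bnip3 and Slc16a3, which the rule chose by these comparisons. Of the 17 list genes that met both the wild-type and the KO conditions, 8 reached the rescue limit in the second rescue library and 2, Bnip3 and Slc16a3, in the first. Mxi1, a MAX-binding repressor and the next nearest, had 105 and 153 CPM in the rescue, 67.4 and 63.7 CPM in the KO, and 144 and 142 CPM in the wild type, and its first library stood at 0.733 times the wild-type mean. At the other end Car9, the cell-surface carbonic anhydrase, had 10.8 and 9.20 CPM in the rescue, 3.998 and 5.65 CPM in the KO, and 74.2 and 63.3 CPM in the wild type. Car9 rose in the rescue against the KO (log2 change 1.15, SE 0.21, edgeR adjusted p = 0.0069) yet stayed at 0.146 times the wild-type mean.

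**Figure D1:**
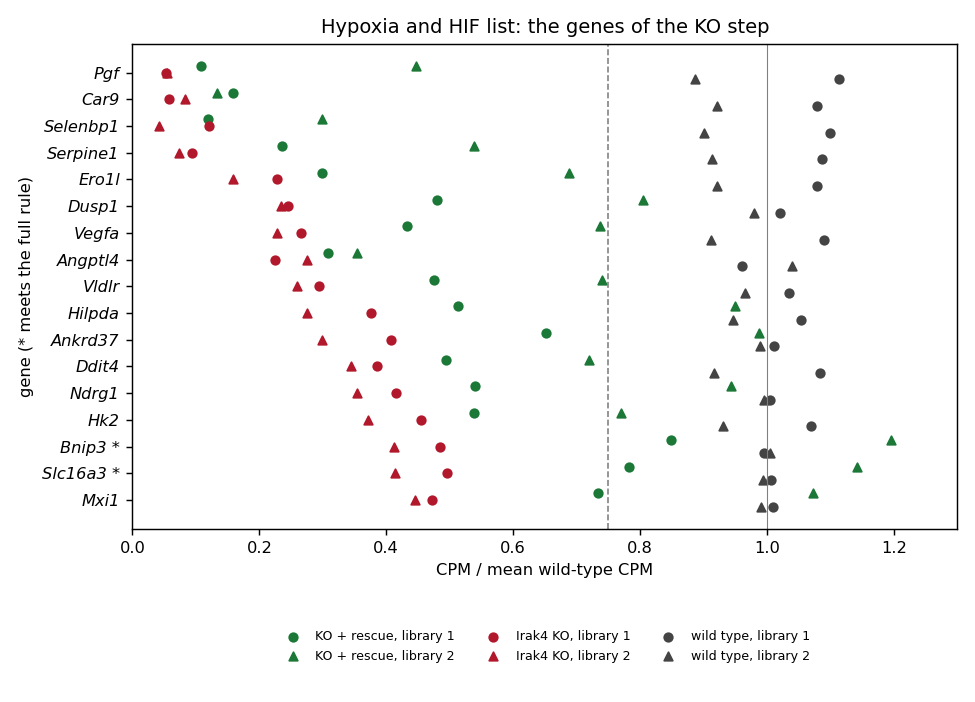
Level of the 17 hypoxia and HIF list genes that met the wild-type and KO conditions, as CPM over the mean wild-type CPM (horizontal axis), with circles for the first and triangles for the second library of each group, and the dashed line at the rescue limit of 0.75. Bnip3 and Slc16a3 are the 2 whose rescue libraries both lie right of that line, and the second rescue library lies right of the first for every gene but Car9.

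Relatives and partners of these 2 genes were measured in the same libraries. Bnip3l, the paralog of Bnip3, had 133 and 152 CPM in the rescue, 105 and 103 CPM in the KO, and 168 and 164 CPM in the wild type. Bnip3l fell in the KO by 0.80 on the log2 scale (SE 0.09, edgeR adjusted p = 4.9e-05). By CPM scaled to the library total, as the rule reads it, its KO mean was 0.628 of the wild type, above the limit. Slc16a1, the other lactate transporter measured at a sizeable level, had 288 and 268 CPM in the rescue, 299 and 321 CPM in the KO and 262 and 281 CPM in the wild type, with no change past the threshold (edgeR adjusted p = 0.49 against the KO in the rescue, and 0.55 for the KO against the wild type). Per kilobase of gene length (RPKM), Slc16a1 averaged 62.8 RPKM in the rescue against 4.25 RPKM for Slc16a3, so the gene that met the rule is the lesser of the pair in these cells. Bsg, the chaperone that carries both transporters to the membrane, had 1031 and 1532 CPM in the rescue, 739 and 777 CPM in the KO, and 1904 and 1669 CPM in the wild type. Bsg rose in the rescue against the KO (log2 change 0.83, SE 0.16, edgeR adjusted p = 0.0078). It remained lower than in the wild type (log2 change -0.54, edgeR adjusted p = 0.030).

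Of 22 tested glycolytic enzymes and transporters, 13 rose in the rescue against the KO and none fell, where 8.35% of all tested genes rose, while 17 fell in the KO against the wild type and none rose, where 23.5% of all tested genes fell. Their median log2 changes were 0.42 and -0.65, and by CPM alone 20 of the 22 were higher in the rescue than in the KO and 21 lower in the KO than in the wild type. Slc16a3, which these counts include, was the 1 gene of the list that met the full rule. The glucose transporter Slc2a1 had 512 and 673 CPM in the rescue, 376 and 313 CPM in the KO, and 641 and 641 CPM in the wild type. Its rescue libraries stood on either side of the wild-type pair, but its first KO library was over 0.5 times the lower wild-type value and kept it out of the set, while the second was under that limit.

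Ankrd1 (chr19:36111965-36119844, minus strand), a nuclear cofactor also found in muscle sarcomeres and one of the standard readouts of YAP and TAZ, was the most abundant of the 10 per kilobase, at 314 ± 72.3 RPKM in the rescue, 136 ± 8.58 RPKM in the KO and 343 ± 25.1 RPKM in the wild type (SD, n = 2 each). It had 465 and 645 CPM in the rescue, 250.5 and 229 CPM in the KO, and 637 and 575 CPM in the wild type. The rescue libraries enclosed the wild-type pair and the KO libraries stood apart below both. The log2 change was 1.28 (SE 0.14) in the rescue relative to the KO and -1.46 (SE 0.14) for the KO against the wild type.

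Of 25 tested YAP-TAZ targets, 8 rose in the rescue against the KO and none fell, where 8.35% of all tested genes rose, and 19 fell in the KO against the wild type and none rose, where 23.5% of all tested genes fell. The list medians were log2 changes of 0.27 and -0.55 for those comparisons. By CPM alone 23 of the 25 were higher in the rescue than in the KO and 21 were lower in the KO than in the wild type. Its best known secreted members both came close to the rule. Ccn2 had 521 and 843 CPM in the rescue, 318 and 253 CPM in the KO, and 666 and 622 CPM in the wild type, and failed the KO limit by its first library, at 0.512 of the lower wild-type value. Ccn1 had 474 and 569.7 CPM in the rescue, 305 and 246 CPM in the KO, and 669 and 643 CPM in the wild type, and failed the rescue limit by its first library, at 0.723. F3, tissue factor, returned least of the list genes that met the KO condition, with 174 and 218 CPM in the rescue, 113 and 143 CPM in the KO, and 578 and 554 CPM in the wild type.

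Gadd45b (chr10:80930091-80932204, plus strand) is a stress-induced protein that activates a kinase upstream of the stress-activated MAP kinases, and it is also a known NF-kB target. It had 15.4 and 19.7 CPM in the rescue, 7.65 and 7.45 CPM in the KO, and 19.0 and 19.8 CPM in the wild type. The second rescue library fell between the wild-type pair, the first below it. The log2 change was 1.28 (SE 0.17) in the rescue relative to the KO and -1.49 (SE 0.17) for the KO against the wild type. Gadd45a, of the same family, had 45.4 and 45.2 CPM in the rescue, 25.6 and 32.2 CPM in the KO, and 56.2 and 48.3 CPM in the wild type. Gadd45g had 28.6 and 31.6 CPM in the rescue, 21.2 and 20.1 CPM in the KO, and 25.7 and 24.4 CPM in the wild type. Both relatives rose in the rescue against the KO (edgeR adjusted p = 0.0055 for Gadd45a and 0.010 for Gadd45g), and both fell in the KO (edgeR adjusted p = 9.0e-05 and 0.017).

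Thbd (chr2:148404466-148408188, minus strand) encodes thrombomodulin, the membrane receptor that turns thrombin from a clotting enzyme into an activator of protein C. It had 21.8 and 27.6 CPM in the rescue, 11.7 and 10.45 CPM in the KO, and 27.3 and 28.5 CPM in the wild type. The second rescue library lay between the wild-type pair, with a log2 change of 1.21 (SE 0.16) against the KO and of -1.45 (SE 0.15) for the KO against the wild type. Procr, the receptor that presents protein C to thrombomodulin, had 20.3 and 24.9 CPM in the rescue, 15.3 and 14.2 CPM in the KO, and 22.6 and 24.9 CPM in the wild type, and it also rose in the rescue (log2 change 0.68, SE 0.15, edgeR adjusted p = 0.014). F2r, the thrombin receptor, rose as well (log2 change 0.65, SE 0.09, edgeR adjusted p = 0.0018), but at 490 and 529.8 CPM in the rescue it stayed below the 766 and 773 CPM of the wild type, with 347 and 334 CPM in the KO. By mean RPKM, Thbd stood at 6.64 in the rescue, 2.98 in the KO and 7.49 in the wild type. F3, the initiator of clotting, stood at 105 RPKM in the rescue, 68.3 RPKM in the KO and 302 RPKM in the wild type. Thbd and Procr are best known from endothelium. Of 5 endothelial markers, 2 reached 1 CPM in any library, and Pecam1, Tie1 and Vwf stayed at or under 0.255 CPM. The summed level of the 5 was 14.6 to 38.4 CPM in the rescue, 16.6 to 32.3 CPM in the KO and 4.39 to 5.28 CPM in the wild type. Cdh5 made up most of it, at 38.0 and 14.5 CPM in the rescue, 16.5 and 31.95 CPM in the KO, and 2.82 and 3.49 CPM in the wild type. Kdr, the other, had 0 and 0.131 CPM in the rescue, 0.0869 and 0.120 CPM in the KO, and 1.46 and 1.60 CPM in the wild type. The 2 markers thus differed in direction, and whether endothelial cells have a part in the Thbd level was not tested.

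Cttnbp2nl (chr3:105001915-105053146, minus strand) encodes a coiled-coil protein found on actin stress fibres and in striatin phosphatase complexes. It had 254 and 274 CPM in the rescue, 141 and 139 CPM in the KO, and 321 and 309.8 CPM in the wild type. The 2 libraries of each group lay close together, the groups did not overlap, and the rescue came back least of the 10, to 0.837 times the wild-type mean. The log2 change was 0.98 (SE 0.09) in the rescue relative to the KO and -1.29 (SE 0.09) for the KO against the wild type. Its paralog Cttnbp2 stood between 4.33 and 7.49 CPM in all 6 libraries. Among its complex partners Strn3, Strn4 and Mob4 passed no threshold in the rescue against the KO or in the KO against the wild type. Strn rose in the KO (log2 change 0.29, SE 0.10, edgeR adjusted p = 0.033). Cttnbp2nl and Bnip3 each share exonic bases with an annotated gene on the opposite strand, and reads of such pairs cannot be told apart without a stated strand setting.

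Tmcc3 (chr10:94311949-94590956, plus strand) encodes a transmembrane coiled-coil protein of the endoplasmic reticulum. It had 37.1 and 48.9 CPM in the rescue, 21.9 and 18.4 CPM in the KO, and 44.3 and 46.1 CPM in the wild type, with the rescue on either side of the wild-type pair. The log2 change was 1.15 (SE 0.15) in the rescue relative to the KO and -1.28 (SE 0.14) for the KO against the wild type. Tmcc1, of the same family, kept 20.3 and 21.4 CPM in the rescue, 20.4 and 22.3 CPM in the KO, and 19.1 and 19.9 CPM in the wild type. Tmcc2 was higher in the rescue, at 28.1 and 28.8 CPM, than in the KO, at 19.7 and 16.5 CPM (edgeR adjusted p = 0.0069), and had 18.5 and 19.1 CPM in the wild type. Neither relative was called in the KO against the wild type (edgeR adjusted p = 0.996 for Tmcc1 and 0.32 for Tmcc2).

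Glrp1 (chr1:88499871-88510066, minus strand), a glutamine-rich protein, had 48.7 and 64.2 CPM in the rescue, 28.2 and 29.1 CPM in the KO, and 65.5 and 63.8 CPM in the wild type. Its first rescue library was the nearest of all to the limit, at 0.754 times the wild-type mean. The log2 change was 1.05 (SE 0.13) in the rescue relative to the KO and -1.30 (SE 0.13) for the KO against the wild type. The noncoding 2610307P16Rik (chr13:28460034-28885620, minus strand) was the lowest in CPM, with 9.70 and 11.6 CPM in the rescue, 5.65 and 5.405 CPM in the KO, and 13.2 and 11.8 CPM in the wild type. Both of its rescue libraries lay below the wild-type pair, and its counts, 45 to 125 per library, were low, with log2 changes of 1.00 (SE 0.19) for the rescue over the KO and -1.29 (SE 0.19) for the KO over the wild type.

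**Figure D2:**
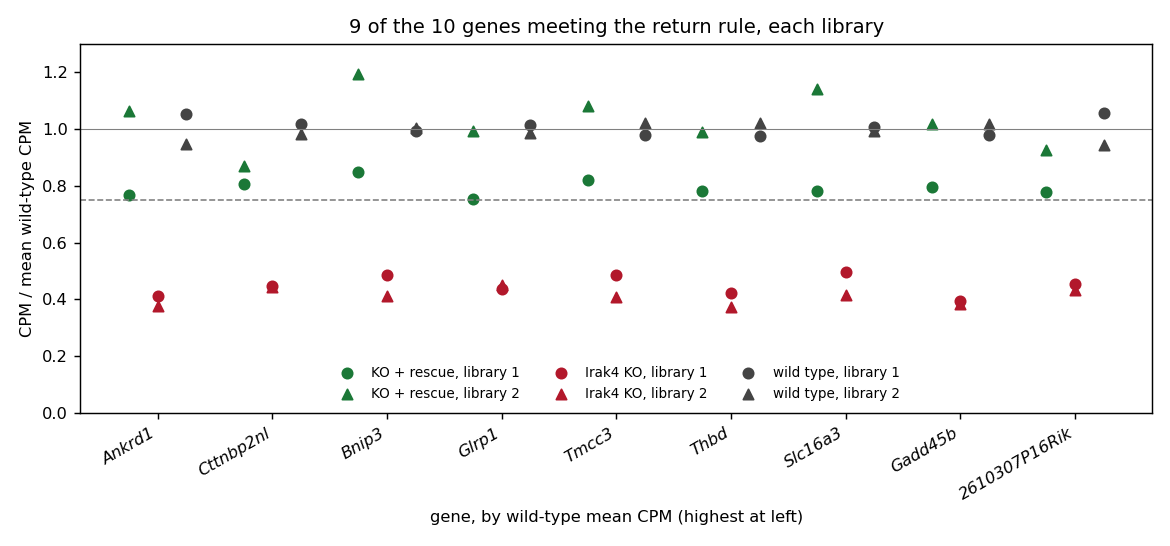
Level of 9 of the 10 genes in each library as CPM over the mean wild-type CPM (vertical axis), ordered by wild-type mean, with circles for first and triangles for second libraries and the dashed line at the rescue limit of 0.75. The KO points of every gene lie under 0.5, and the first rescue library lies between 0.754 and 0.848 for each of them, below the second.

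**Figure D3:**
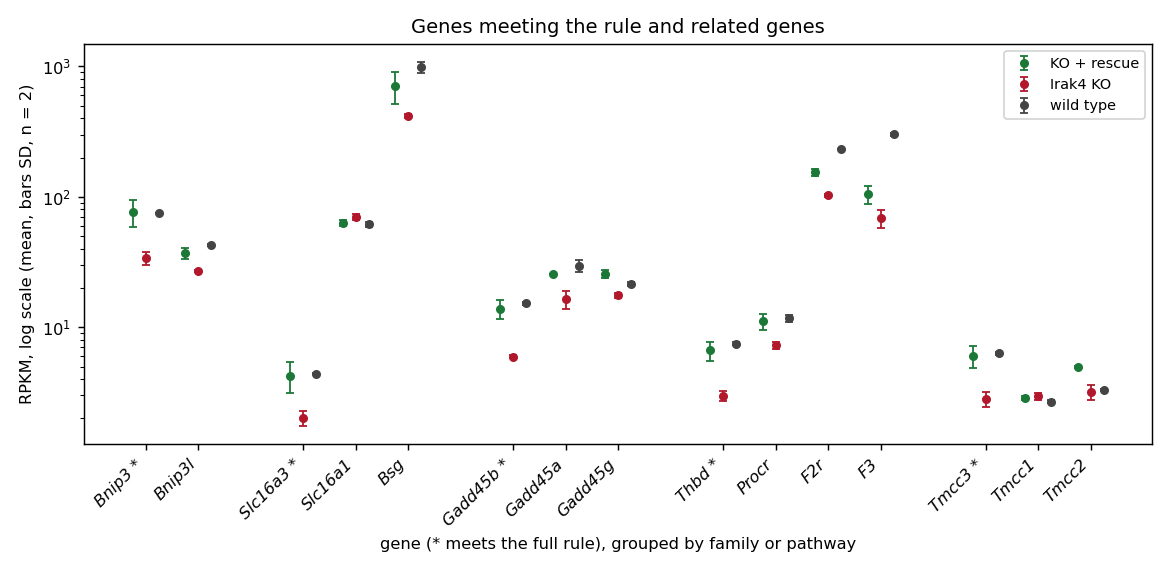
Mean RPKM on a log scale (bars SD, n = 2 libraries) of 5 of the 10 genes and of relatives or pathway partners, in rescue, KO and wild-type cells from left to right for each gene. Slc16a1 and Tmcc1 show little difference between the groups, while F3 stays low in the rescue.

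The KO mean had a median of 0.443 times the wild-type mean and was at most 0.455 times it, and the rescue mean was 0.837 to 1.02 times (median 0.896). The second rescue library was higher than the first in 10 of 10 genes. It had a median of 1.00 times the wild-type mean and reached that mean in 5 of the 10 genes. The first rescue library had a median of 0.782 and reached it in none. Irak4 itself was higher in the first, and whether its level has a part in the return was not tested. Among the 297 genes that met the wild-type and KO conditions the second library was higher in 83.2%, and among all 8966 that met the wild-type condition in 43.4%. The first KO library was higher than the second in 9 of the 10 genes, against 48.3% of those 8966. The 10 genes lay on 9 chromosomes, and the 2 on chromosome 10, Gadd45b and Tmcc3, are 13379745 bases apart.

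Of the 297 genes that met the wild-type and KO conditions, 10 (3.37%) met the rescue condition. Of all 8966 genes that met the wild-type condition, 7843 (87.5%) did. In the first rescue library alone 11 of the 297 (3.70%) reached the limit, and in the second 90 (30.3%), and 10 of the 11 reached it in both. Among the 8966, 89.1% reached it in the first library and 92.5% in the second. Another 36 of the 297 reached the limit by the mean of the rescue libraries but not in both. By depth of the fall, none of the 127 genes whose KO mean was under 0.3 times the wild-type mean met the rule, 4 of 110 did between 0.3 and 0.4, and 6 of 60 between 0.4 and 0.5. A limit set against the wild type asks for a larger rise after a deeper fall, so nothing is read from this order. In relation to the KO, their rise was not the steepest. The rescue mean had a median of 2.18 times the KO mean in the 10 genes, and 57 of the other 287 genes had a ratio above that median. The same rule turned upside down, for genes at 2 or more times the higher wild-type value in both KO libraries that came back under the wild-type mean over 0.75, was met by 3 of 131 genes (2.29%): Gstt1, Ppp1r1b and Slc26a2, named after their values were seen.

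**Figure D4:**
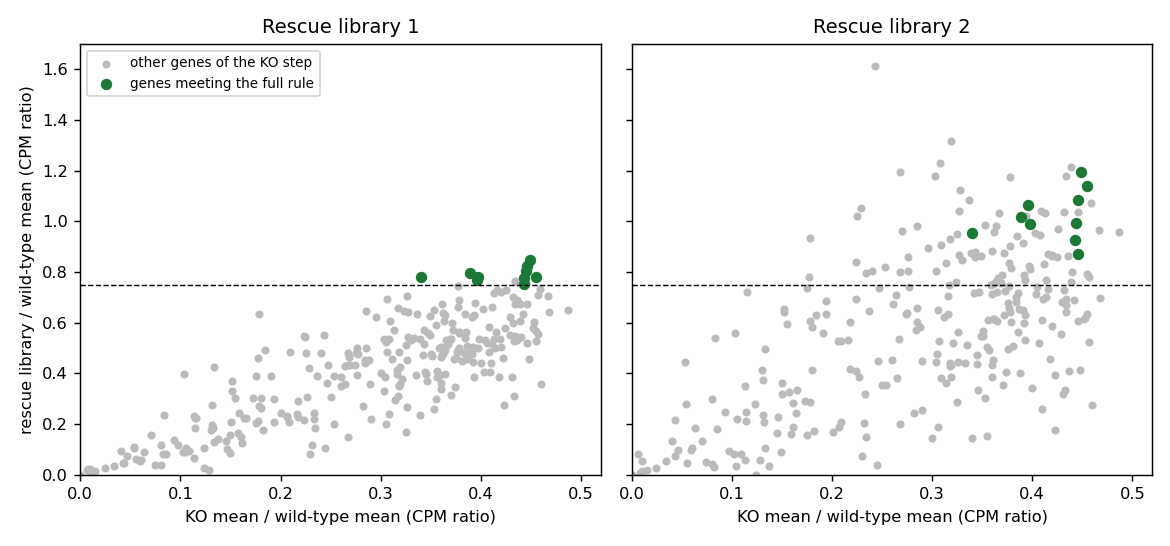
Each of the 297 genes that met the wild-type and KO conditions, with the KO mean over the wild-type mean on the horizontal axis and 1 rescue library over the wild-type mean on the vertical axis, in a panel for each rescue library. The dashed line is the limit of 0.75, which 11 genes reach in the first library and 90 in the second.

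The fall and the return share libraries. The wild-type mean is the denominator of both ratios, and the KO libraries enter both the fall and the rise above the KO, so a chance deviation in either group moves both. How many of the 10 genes would meet the rule by chance was not tested. Of 12339 genes tested with edgeR, with calls at an adjusted p under 0.05, all 10 were called higher in the rescue than in the KO, where 8.35% of all genes were, and all 10 lower in the KO than in the wild type, where 23.5% were. These contrasts chose the genes, and nothing is read from those counts. In the rescue against the wild type none of the 10 was called higher, where 10.2% of all genes were, and 1, Cttnbp2nl, was called lower, where 12% were. A difference that missed the threshold does not show that a gene was back at its wild-type level. Without the second rescue library, 6 of the 10 were called lower than in the wild type.

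The limits of the rule cut through a continuous range. Just inside the rescue limit, by the lower rescue library over the wild-type mean, lay Glrp1 (0.754), Ankrd1 (0.767), 2610307P16Rik (0.777), Slc16a3 (0.782) and Thbd (0.782). Just outside it lay Dbn1 (0.746), Mxi1 (0.733), Wincr1 (0.730), Igfbp3 (0.729) and Ccn1 (0.723). Just inside the KO limit, by the higher KO over the lower wild-type library, lay Slc16a3 (0.499), Tmcc3 (0.495), Bnip3 (0.487), 2610307P16Rik (0.480) and Cttnbp2nl (0.456). Just outside it, among genes with an established symbol, lay Ccn2 (0.512), Plekhn1 (0.516), Plk2 (0.530), Bcar3 (0.545) and Zfp52 (0.557). Nearest above the wild-type minimum among the genes with an established symbol was Gadd45b, at 19.0 CPM in the lower library, with Slc16a3, Thbd and Tmcc3 above it. Nearest below it were Rbpms2 at 9.51 CPM and Mfsd9 at 8.29 CPM, and then Ctla2b, Lrrc55 and Nol4 between 1.80 and 3.86 CPM.

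The set depended on how libraries were scaled. With TMM scaling, under which the KO against the wild type fell by 0.13 on the log2 scale and the rescue against the wild type fell by 0.06, 7 genes met the rule. Of these, 4 were among the 10 (Bnip3, Cttnbp2nl, Gadd45b and Tmcc3) and 3 were others (Ccn2, Plekhn1 and Gm28119). Among the 6 that dropped out were Ankrd1, Glrp1, Slc16a3, Thbd and 2610307P16Rik. The same 6 dropped out with DESeq2 size factors. Bnip3, Cttnbp2nl, Gadd45b and Tmcc3 also met the rule when either wild-type library was left out. Leaving out a KO or a rescue library can only loosen the rule for a gene that meets it. All 10 therefore met it in those settings, and nothing is read from that.

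**Figure D5:**
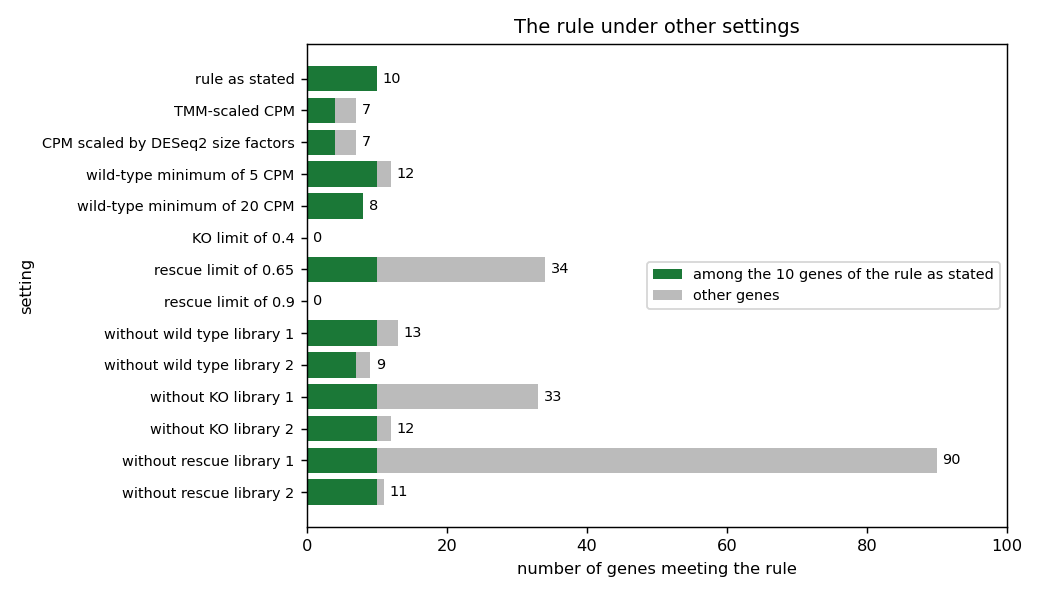
Number of genes meeting the rule (horizontal axis) under each setting, with the bar split into genes among the 10 and other genes. The count lies between 0 and 90, and leaving out the first rescue library gives the longest bar.

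Apart from the hypoxia, glycolysis and YAP-TAZ lists, no list held any of the 10. The lists nearest to IRAK4 had few genes that could have met the rule: 1 on the Toll-like and interleukin-1 list and 14 on the NF-kB list met the wild-type and KO conditions. With 3.37% of all such genes in the set, nothing is read from their absence. Of 28 tested receptors, adaptors and kinases of Toll-like and interleukin-1 signalling, 1 rose and 2 fell in the rescue against the KO, and 4 rose and 5 fell in the KO against the wild type, with median log2 changes of -0.05 and -0.11. That is 3.57% higher in the rescue, against 8.35% of all tested genes, and 17.9% lower in the KO, against 23.5%. With 28 genes these shares are near those of all genes, and nothing is read from the difference. In the other directions, 5.88% of all tested genes fell in the rescue against the KO and 23.2% rose in the KO against the wild type. Of 37 tested NF-kB targets and cytokines, 6 rose and 6 fell in the rescue against the KO, and 32 fell and 2 rose in the KO against the wild type, with medians of 0.00 and -1.22. That is 16.2% higher in the rescue, against 8.35% of all tested genes, and 86.5% lower in the KO, against 23.5%. By CPM alone, 15 of the 37 were higher in the rescue than in the KO and 33 lower in the KO than in the wild type. Of its 14 genes that met the wild-type and KO conditions, the first rescue library brought none to the limit and the second brought 2. Gadd45b is not on that list, although it is known as an NF-kB target. Of 33 tested genes of RAS-ERK output and feedback, 18 rose in the rescue and 28 fell in the KO, with none in the other direction, which is 54.5% and 84.8% against the same 8.35% and 23.5%. By CPM alone, 29 of the 33 were higher in the rescue than in the KO and 33 lower in the KO than in the wild type. On this list 5 of the 7 that met the KO condition reached the limit in the second rescue library and none in the first.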

How the data were processed

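The 6 deposited files hold, per the file headers, 3 values for each of 41388 genes: the read count, CPM and RPKM. Recomputed from the deposited count and the library total, CPM differed from the authors' by at most 3.3e-11. RPKM, recomputed with the deposited gene length, differed by at most 4.7e-11. The submitters' processing notes list bcl2fastq, STAR 2.0.4b, Subread, featureCounts 1.45 and GRCm38, and neither the annotation release nor the strand setting is given in the sources used here. Symbols came from GENCODE M21 for 40254 identifiers, and no row lacked an identifier.

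The rule was applied to CPM computed from the counts. Levels of different genes were compared only by RPKM. For fold changes, edgeR 4.0.16 in R 4.3.3 kept 12339 genes (filterByExpr, minimum count 10, minimum total 15), scaled by TMM and fitted its quasi-likelihood test to all 6 libraries (1 mean for each group, leaving 3 residual degrees of freedom). The Benjamini-Hochberg adjustment ran over the 12339 genes, and a gene "rose" or "fell" where the adjusted p was under 0.05. The standard error (SE) is the fold change over the square root of the F statistic. The test was tested on simulated data before use. Motifs were searched on both strands of RefSeq promoter windows.

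The members, gene lists and motifs were chosen with earlier results of these data known, and the relatives of members after the members were known, so list counts stand beside those of all genes and no set was tested. Named were Irak4, the members in a list, and the members highest by wild-type level or lowest by KO ratio. The 5 genes nearest each side of a threshold were named too. Other genes, among them the list genes and relatives described, were named after their values were seen. Alternatives were TMM and DESeq2 1.42.0 size factors, other limits, leaving out each library, no filter on low counts, DESeq2's own test, the compared groups alone, and a replicate block. The values of 1 of the 10 members and of some other genes are not reported here.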

Additional observations from a re-analysis of the deposited data

How the results depend on the processing

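The 10 genes became 0 with a KO limit of 0.4, 0 with a rescue limit of 0.9 and 34 with a rescue limit of 0.65, which keeps the 10 and adds 24. Leaving out 1 library gave 9 to 90 genes: 90 without the first rescue library, 33 without the first KO library and 9 to 13 otherwise. Of the 90 genes chosen without the first rescue library, 10 (11.1%) reached the limit in it, at a median of 0.602 times the wild-type mean, and of the 11 chosen without the second, 10 (90.9%) did. A wild-type minimum of 5 or 20 CPM gave 12 or 8 genes, and DESeq2 size factors, like TMM, 7. Members called higher in the rescue than in the KO were 8 to 10 with 1 library left out, 8 without the second KO library, where 139 genes in all were called. Members called lower in the rescue than in the wild type were 0 to 6: 0 without either wild-type library or without the first rescue library, and 6 without the second. No other alternative changed a count of called members, size factors, no filter, DESeq2's test and the compared groups alone among them. Same-numbered deviations correlated by 0.04 (KO and wild type), -0.19 (rescue and KO) and -0.15 (rescue and wild type) over 12339 genes. With 1 difference between libraries in each group, this cannot decide whether the replicate numbers pair the libraries. The replicate block left 10 members higher in the rescue than in the KO, 10 lower in the KO than in the wild type, and 0 higher and 1 lower in the rescue than in the wild type. Crossed pairing, chosen after seeing the data, gave the same counts of members, with 1425 genes higher in the rescue than in the KO and 3107 lower in the KO than in the wild type. Of 100 member ratios recomputed under other settings, 4 moved by more than the spread between libraries. The 50 of the KO to the wild type kept their sign, and 6 of the 50 of the rescue to the wild type changed it. Bnip3 went below the wild type with TMM (log2 ratio -0.03) and without the second rescue library (-0.24). Ankrd1 (0.09), Gadd45b (0.02), Slc16a3 (0.19) and Tmcc3 (0.12) went above it without the first. With 2 libraries per group, a shift in 1 library decides whether a gene meets the rule; the lowest member count, 45 reads, limits the precision of 2610307P16Rik.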
